A study of Mus musculus with 10 samples.

Results

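Atp1b1, Atp1b2, Atp1b3, Fxyd1 and Fxyd5 were followed in RNA-seq of mouse right atria, 4 labelled as controls and 6 as Tbx5 mutants. These 5 genes encode the beta subunits and accessory FXYD proteins of the sodium pump and were taken from the gene table by symbol. They are 5 of the 23337 genes listed, and all 5 were among the 13084 genes with enough reads to be tested. No proton exchanger is among the 5, and the exchangers are given further on as part of a wider list of sodium transport genes.

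The sodium pump, or Na+/K+-ATPase, uses ATP to move sodium out of the cell and potassium in. It holds a catalytic subunit that carries the ions and a glycosylated beta subunit that brings the enzyme to the plasma membrane. Small membrane proteins with an FXYD motif bind the pump and change its affinity for ions. In heart muscle the sodium gradient drives calcium out through the sodium-calcium exchanger and acid out through sodium-proton exchangers, and phospholemman, the product of Fxyd1, restrains the pump until it is phosphorylated.

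The series holds 4 libraries labelled control (M1, M2, F1 and F2) and 6 labelled Tbx5 mutant (F1, F2, F3, M1, M2 and M3), M and F being the labelled sex. The mutant genotype is given as R26Cre driven TBX5 removal. Cre recombinase under the ubiquitous R26 promoter, switched on by tamoxifen, was meant to cut out exon 3 of Tbx5 in every cell type. The study describes its controls as R26CreERt2 and its mutants as Tbx5 fl/fl;R26CreERt2 for its left atrial work, and the labels here give the controls no allele beyond "Control". All 10 mice carry the strain label "mix" and the age 8 to 10 weeks, while the protocol text gives 6 to 8 weeks. Tamoxifen was injected at 0.167 mg per day for 3 days, and tissue was taken 1 week later. The comparison of right atria with and without Tbx5 is the question the series states.

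Total counts per library ran from 5703775 to 7095141. The ribosomal precursor Rn45s took 0.268 to 1.49% of the counts in 9 libraries and 38.9% in mutant M3, which left 3484550 counts for other genes there. Values below are CPM, read counts scaled to a common library size after TMM normalization, and 1 read was worth 0.133 to 0.272 CPM. Tbx5 itself went against the labels, at 205 ± 17.8 CPM (SD, n = 4) in labelled controls and 394 ± 83.3 CPM (SD, n = 6) in labelled mutants, and all 6 of the latter lay above all 4 controls (log2 fold change 0.94, SE 0.15, adjusted p = 0.000495 by edgeR). Reads on exons other than exon 3 can enter this count. Xist and Ddx3y also went against the labelled sex of all 4 controls: those labelled male had 7850 and 10149 Xist reads and 0 Ddx3y reads, while those labelled female had at most 14 Xist reads and 1319 and 1124 Ddx3y reads. The 6 mutants matched their labelled sex. Groups and sexes are therefore named as labelled, and every comparison within a labelled sex below sets Xist-expressing controls against Ddx3y-expressing mutants (labelled male) or the reverse (labelled female), so that group and sex by these transcripts cannot be told apart in it. Fewer cells of a type and less RNA per cell cannot be told apart in these whole-tissue libraries.

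The promoters of Atp1b1 and Fxyd5, the 2 genes of the 5 that passed the test below, and of Fxyd1, the neighbour of Fxyd5 that did not, are shown because T-box factors bind DNA with the core AGGTGTG. Each is the 250 bases before the RefSeq start in GRCm38.p6, read 5′ to 3′ on the gene's own strand, which is the minus strand for all 3. Capitals mark the T-box core, here read on the opposite strand.
Atp1b1, chr1:164458356-164458605: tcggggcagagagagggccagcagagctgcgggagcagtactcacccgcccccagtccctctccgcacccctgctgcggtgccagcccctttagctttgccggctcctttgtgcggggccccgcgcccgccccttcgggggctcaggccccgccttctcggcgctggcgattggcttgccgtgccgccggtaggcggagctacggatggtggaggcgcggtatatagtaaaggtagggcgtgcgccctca
Fxyd5, chr7:31042332-31042581: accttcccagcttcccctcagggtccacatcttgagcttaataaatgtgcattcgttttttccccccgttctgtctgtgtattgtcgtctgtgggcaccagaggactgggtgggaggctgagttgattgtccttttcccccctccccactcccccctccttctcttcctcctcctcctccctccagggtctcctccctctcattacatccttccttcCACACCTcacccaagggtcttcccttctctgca
Fxyd1, chr7:31054854-31055103: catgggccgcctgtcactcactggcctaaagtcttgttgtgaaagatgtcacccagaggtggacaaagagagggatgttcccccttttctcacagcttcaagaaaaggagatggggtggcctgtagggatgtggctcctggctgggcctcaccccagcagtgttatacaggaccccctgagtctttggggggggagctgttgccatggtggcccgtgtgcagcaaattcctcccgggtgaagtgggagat
The core was searched on both strands, as were a longer form of it and the letters of a TATA box, a GC box and a CCAAT box. Fxyd5 held AGGTGTG 33 bases before its start, and 5.1% of 32851 promoters of this length held it. The longer AGGTGTGA, which contains the core, was found in none of the promoters of Atp1b1, Atp1b3, Fxyd1 and Fxyd5 and in 1.12% of all promoters. Atp1b2 had no entry in the set of promoters used and was not searched. The Atp1b1 window held the GC box letters GGGCGG 205 and 124 bases before the start, on the opposite strand, and 32.7% of all promoters held them. It also held CCAAT 81 bases before the start on the opposite strand, as did 33.8% of promoters on either strand. One of the windows of Atp1b3 held the GC box 5 times, from 185 to 26 bases before the start. Fxyd1 held none of the motifs searched, and no window of these genes held the TATA box letters TATAAA, found in 12.4% of promoters. These letters describe the windows and say nothing of binding in these mice.

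Among the 5 genes, Atp1b1 and Fxyd5 had higher read counts in the mice labelled Tbx5 mutant, and Atp1b2, Atp1b3 and Fxyd1 did not pass the test. Atp1b1 rose 1.33-fold and Fxyd5 rose 1.53-fold. A gene was called changed at an adjusted p under 0.05, a fold change over 1.5 and a mean normalized signal over 1 in the controls. Fxyd5 alone met all of these, so 1 of 5 genes was called (higher), against 15.7% of all tested genes in either direction, 8.50% called higher and 7.16% called lower. With any size of fold change, 2 of the 5 passed the adjusted p and both were higher, where 31.3% of all tested genes passed, 16.3% higher and 15.0% lower. The median log2 fold change of the 5 was 0.06, beside -0.005 for all tested genes.

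Atp1b1 encodes beta-1, the main beta subunit of heart muscle. Control M1, M2, F1 and F2 had 200, 209, 229 and 224 CPM. Mutant F1, F2 and F3 had 311, 252 and 272 CPM, and mutant M1, M2 and M3 had 276, 312 and 289 CPM. All 6 mice labelled mutant lay above all 4 controls, and 22.7% of all tested genes had groups that did not overlap. The mean was 215 ± 13.1 CPM (SD, n = 4) in controls and 285 ± 23.5 CPM (SD, n = 6) in mutants. The log2 fold change was 0.41 (SE 0.091), with an adjusted p of 0.00434 from the quasi-likelihood test of edgeR, adjusted over 13084 genes by the Benjamini-Hochberg method. An exact two-sided permutation test over the 210 ways to split 4 mice from 6 gave p = 0.0048, the smallest it can give. The change stayed under the fold of 1.5, so the gene was not called. The log2 fold change of Atp1b1 stayed between 0.30 and 0.52 in 27 other analyses. Among the libraries labelled male, where controls and mutants differed in sex by Xist and Ddx3y, it was 0.52 (adjusted p = 0.0481 by edgeR), and among those labelled female, where they differed the other way, it was 0.30 (adjusted p = 0.102 by edgeR).

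Atp1b1 (ENSMUSG00000026576.12) lies on the minus strand of chromosome 1 from 164437109 to 164458355 in GRCm38, and its transcript Atp1b1-201 has 6 exons. At its 3' end it overlaps 617 bases of Nme7, a gene on the opposite strand. Nme7 had 26.5 ± 2.14 CPM (SD, n = 4) in controls and 34.3 ± 1.86 CPM (SD, n = 6) in mutants, a log2 fold change of 0.37 (adjusted p = 0.00668 by edgeR). Whether reads were counted by strand is not stated, so reads within the overlap cannot be assigned to Atp1b1 or Nme7.

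Atp1b2 encodes beta-2, a beta subunit best known from glia. It was the scarcest of the 5, with 10 to 64 reads per library. Control M1, M2, F1 and F2 had 4.14, 7.61, 6.11 and 8.66 CPM. Mutant F1, F2 and F3 had 2.84, 5.06 and 6.97 CPM, and mutant M1, M2 and M3 had 1.71, 3.20 and 5.17 CPM. The groups overlapped: 3 of 6 mutants lay below all controls and the other 3 lay within the control range. The means were 6.63 ± 1.96 CPM (SD, n = 4) and 4.16 ± 1.92 CPM (SD, n = 6). The log2 fold change was -0.67 (SE 0.32, adjusted p = 0.121 by edgeR), and the exact permutation test gave p = 0.110. Mutant F3 was the highest mutant, and without it the fall was called (log2 fold change -0.89, adjusted p = 0.0426 by edgeR).

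Atp1b3 encodes beta-3, a beta subunit found in many tissues. The control libraries had 97.9 and 110 CPM in M1 and M2 and 86.1 and 83.8 CPM in F1 and F2. Mutant F1, F2 and F3 had 90.5, 94.7 and 104 CPM, and mutant M1, M2 and M3 had 97.5, 98.4 and 104 CPM. Every mutant lay inside the range of the controls. The means were 94.5 ± 12.2 CPM (SD, n = 4) and 98.2 ± 5.26 CPM (SD, n = 6), with a log2 fold change of 0.06 (SE 0.091, adjusted p = 0.675 by edgeR). The difference was smaller than the spread between controls, and it turned to -0.056 among the libraries labelled male, whose controls and mutants differed in sex by Xist and Ddx3y, and also when each library's trend on transcript length was removed. Atp1b3 (ENSMUSG00000032412.8) lies on the minus strand of chromosome 9 from 96332655 to 96364442, with 7 exons in Atp1b3-201.

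**Figure D1:**
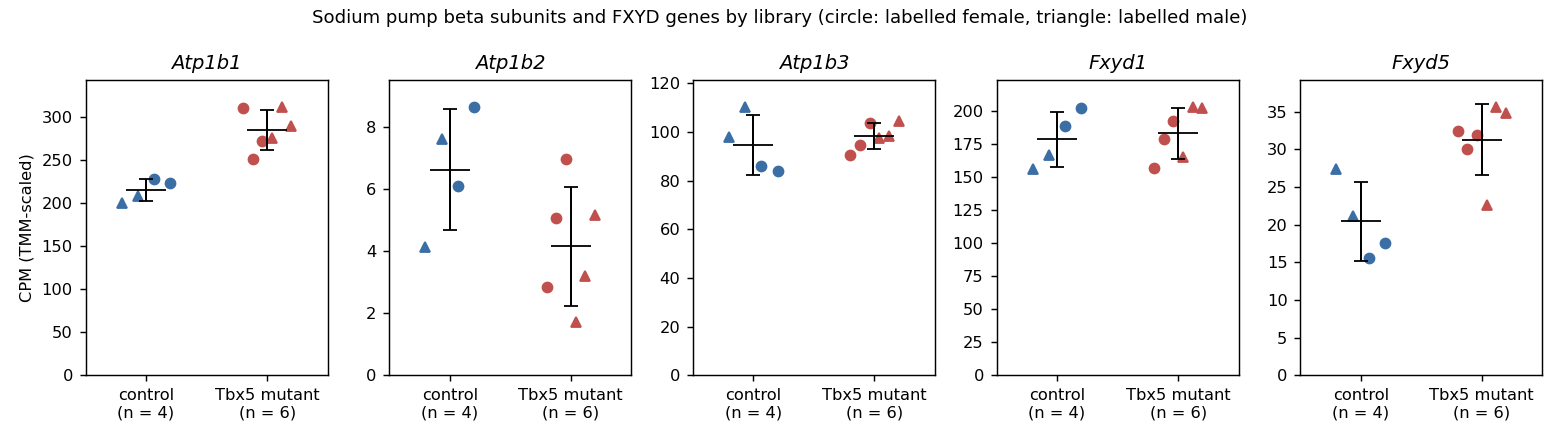
CPM after TMM scaling for Atp1b1, Atp1b2, Atp1b3, Fxyd1 and Fxyd5, each on its own axis from 0, in 4 libraries labelled control and 6 labelled Tbx5 mutant. Points are libraries (circles labelled female, triangles labelled male), with the mean as a horizontal line and the SD as a bar. The groups are apart only for Atp1b1, while 5 of 6 mutants exceed all controls for Fxyd5.

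Fxyd1 encodes phospholemman, the main FXYD protein of heart muscle. Control M1, M2, F1 and F2 had 156, 167, 188 and 202 CPM. Mutant F1, F2 and F3 had 157, 178 and 192 CPM, and mutant M1, M2 and M3 had 165, 203 and 202 CPM. Both groups spread over nearly the same range. The means were 178 ± 20.8 CPM (SD, n = 4) and 183 ± 19.3 CPM (SD, n = 6), the log2 fold change was 0.04 (SE 0.10, adjusted p = 0.821 by edgeR) and the exact permutation test gave p = 0.733.

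The Fxyd1 difference lay near 0 and changed sign easily. It was -0.014 on the log2 scale without control M1 and -0.15 among the libraries labelled female, whose controls and mutants differed in sex by Xist and Ddx3y. In these libraries short transcripts tended to have higher and long ones lower fold changes, with a Spearman correlation of -0.321 between log2 fold change and transcript length over 12953 genes, given as a description. At 620 bases the Fxyd1 transcript was longer than only 1.61% of tested genes. The 254 tested genes of 496 to 775 bases had a median log2 fold change of 0.31, and 20.1% of them were called higher. With each library's trend on length removed, Fxyd1 was lower in the mutants (log2 fold change -0.22, SE 0.075, adjusted p = 0.0449 by edgeR).

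Fxyd5 encodes dysadherin, an FXYD protein known from epithelia, where it raises pump activity and loosens contacts between cells. Control M1, M2, F1 and F2 had 27.4, 21.2, 15.5 and 17.6 CPM. Mutant F1, F2 and F3 had 32.5, 30.1 and 31.9 CPM, and mutant M1, M2 and M3 had 22.6, 35.7 and 34.9 CPM. Control M1 lay above mutant M1, and the other 5 mutants lay above all controls. The means were 20.4 ± 5.22 CPM (SD, n = 4) and 31.3 ± 4.69 CPM (SD, n = 6). The log2 fold change was 0.61 (SE 0.16, adjusted p = 0.0112 by edgeR), and the exact permutation test gave p = 0.0095.

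The fold of 1.53 was close to the threshold of 1.5, and the call turned on single libraries. Without control F1, control F2, mutant M2 or mutant M3 the log2 fold change was 0.50, 0.55, 0.57 and 0.58, under the fold threshold, with adjusted p of 0.0419, 0.0377, 0.0223 and 0.0230 by edgeR. Among the libraries labelled female Fxyd5 rose by 0.92 on the log2 scale (adjusted p = 0.00100 by edgeR), and among those labelled male the log2 fold change was 0.35 (adjusted p = 0.329 by edgeR). In both of these fits the controls and mutants differed in sex by Xist and Ddx3y, so neither is a comparison within 1 sex, and the difference between the fits was not tested. The 1172 bases of the Fxyd5 transcript also put it among the shorter genes, longer than 8.24% of those tested. The 1161 tested genes of 938 to 1465 bases had a median log2 fold change of 0.17, with 12.8% called higher, and with the length trend removed Fxyd5 had a log2 fold change of 0.39 (adjusted p = 0.0802 by edgeR).

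Leukocyte markers moved in the same direction as Fxyd5. Of 6 such genes, Ptprc, Csf1r, Cd68, Itgam and Cd52 were called higher in the mice labelled mutant, and the summed level of all 6, Lyz2 included, ran from 301 to 497 CPM in controls and from 485 to 739 CPM in mutants. Ptprc, which marks all leukocytes, had 19.8 ± 3.58 CPM (SD, n = 4) in controls and 35.4 ± 5.94 CPM (SD, n = 6) in mutants. Fibroblast markers ran from 2650 to 3303 CPM in sum in controls and from 3241 to 4468 CPM in mutants, with Col1a1 and Col1a2 called higher of 6. Pdgfra, a marker of resident fibroblasts, passed the adjusted p in the other direction without reaching the fold of 1.5 (log2 fold change -0.40, adjusted p = 0.0152 by edgeR), and Dcn had a log2 fold change of -0.01. Smooth muscle and pericyte markers summed to 242 to 304 CPM in controls and 323 to 730 CPM in mutants, with Acta2 and Tagln called higher of 5. Pdgfrb passed the adjusted p as higher below the fold of 1.5 (log2 fold change 0.41, adjusted p = 0.0137 by edgeR). Myh11 and Rgs5 did not pass (log2 fold change 0.23 and -0.22, adjusted p = 0.552 and 0.181 by edgeR). None of 5 endothelial or 4 epicardial and mesothelial markers was called. Of the endothelial markers, Emcn passed the adjusted p as higher below the fold of 1.5 (log2 fold change 0.55, adjusted p = 0.0132 by edgeR). Adipocyte markers were too scarce to be tested, with sums of at most 20.8 CPM, and the hemoglobin genes Hba-a1 and Hba-a2 were listed at 0 in all 10 libraries. The protocol includes globin removal, and the reason for these zeros was not tested. The part of these cell types in the Fxyd5 and Atp1b1 values was not tested.

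Fxyd1 and Fxyd5 lie near each other on the minus strand of chromosome 7. Fxyd5 (ENSMUSG00000009687.14) spans 31032722 to 31042481 and Fxyd1 (ENSMUSG00000036570.14) spans 31051678 to 31057199 in GRCm38, with Fxyd7 between them, 31 bases from Fxyd5 and 210 bases from Fxyd1. Fxyd7 had at most 6 reads in any library. The microRNA gene Mir7050 overlaps 60 bases of Fxyd5 on the same strand. GENCODE lists 12 coding transcripts for Fxyd1 and 11 for Fxyd5, and the windows printed above lie inside these spans, in whole for Fxyd1 and in part for Fxyd5, since the RefSeq starts are not the outermost ones.

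Levels of different genes were compared only per length, as CPM per kb of the transcript used. Fxyd1 was highest, at 288 ± 33.5 CPM per kb (SD, n = 4) in controls and 295 ± 31.1 (SD, n = 6) in mutants. Atp1b1 followed at 83.5 ± 5.08 and 111 ± 9.11 CPM per kb. Atp1b3 came next at 47.4 ± 6.13 and 49.3 ± 2.64 CPM per kb, then Fxyd5 at 17.4 ± 4.45 and 26.7 ± 4.01 CPM per kb, and last Atp1b2 at 2.33 ± 0.690 and 1.46 ± 0.675 CPM per kb. The order was the same in both groups, and the ranges of neighbours in it did not overlap within a group. The place of Fxyd1 rests on the length of 620 bases taken for it.

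Set against each other, some proportions of the 5 genes differed between the groups. These ratios and shares come from the values given above and are not separate results. The level of Fxyd1 per length was 3.44 ± 0.228 times that of Atp1b1 in controls (SD, n = 4) and 2.68 ± 0.333 times in mutants (SD, n = 6). Control M1, M2, F1 and F2 had ratios of 3.25, 3.32, 3.43 and 3.76, while the mutants ran from 2.10 in F1 to 2.94 in F2, all below the controls. The Fxyd1 log2 fold change less that of Atp1b1 was -0.37, and stayed between -0.60 and -0.28 over 27 other analyses. Such ratios within a library do not depend on its size factor, and they are given as a description without a test. Among single tested genes the groups did not overlap in 22.7%, and the share for ratios of other gene pairs was not computed.

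Of the 3 beta subunits together, Atp1b1 made up 62.7 ± 3.91% per length in controls (SD, n = 4) and 68.5 ± 2.44% in mutants (SD, n = 6), with 5 of 6 mutants above all controls. Controls labelled male had 60.6% and 58.3%, and those labelled female had 66.2% and 65.8%. Mutant F3 had 65.9%, within the controls, and mutant F1 had the most, 72.2%. Atp1b3 made up 35.6 ± 4.09% in controls and 30.6 ± 2.13% in mutants, with 4 of 6 mutants below all controls. Atp1b2 made up 1.75 ± 0.498% in controls and 0.914 ± 0.436% in mutants. The share of Atp1b1 in controls thus differed between the labelled sexes by about as much as it differed between the groups. The ratio of Fxyd1 to Fxyd5 per length was 17.6 ± 5.76 in controls and 11.2 ± 1.5 in mutants, with 2 of 6 mutants below all controls.

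**Figure D2:**
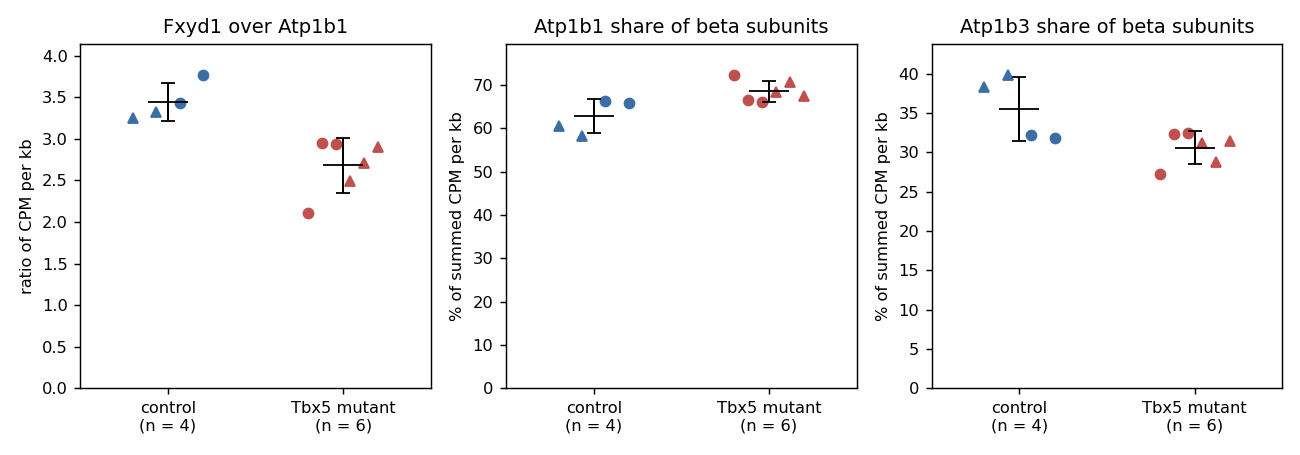
Ratio of Fxyd1 to Atp1b1, and the shares of Atp1b1 and Atp1b3 in the summed level of the 3 beta subunits, all from CPM per kb, by library. Points are libraries (circles labelled female, triangles labelled male), horizontal lines are means and bars are SDs. The ratio of Fxyd1 to Atp1b1 lies between 2.10 and 2.94 in the mutants and between 3.25 and 3.76 in the controls.

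Markers of heart muscle also differed between the groups. Of 7 cardiomyocyte markers, not all of them particular to the atrium, Myl7, Nppa, Sln and Ryr2 were called lower and Tnnt2 higher in the mice labelled mutant. Actn2 and Myl4 passed the adjusted p without reaching the fold needed for a call. Actn2 was higher (log2 fold change 0.33, adjusted p = 0.0263 by edgeR) and Myl4 lower (log2 fold change -0.44, adjusted p = 0.0217 by edgeR). The summed level of the 7 ran from 50017 to 53716 CPM in controls and from 29033 to 40565 CPM in mutants. Nppa weighed most in this sum, with means of 26827 CPM in controls and 17114 CPM in mutants. The atrial light chain Myl7 stood at 6372 ± 970 CPM (SD, n = 4) in controls and 960.2 ± 201 CPM (SD, n = 6) in mutants. Ventricular markers summed to 189 to 294 CPM in controls and 785 to 1586 CPM in mutants, with Myl2 and Myl3 called higher of 4 and Irx4 at no more than 1 read. Myh7, the remaining marker, did not pass (log2 fold change 0.92, adjusted p = 0.208 by edgeR). Its medians were 178 CPM in controls and 184 CPM in mutants. The mean of Myl3 was 45.4 CPM in controls and 688 CPM in mutants. Skeletal muscle markers summed to 2.32 to 3.14 CPM in controls and to more in all 6 mutants, with Acta1 called higher. The mean of Acta1 was 0.349 CPM in controls and 6.59 CPM in mutants. Tnnt3 had a log2 fold change of 0.02 (adjusted p = 0.966 by edgeR), and Myh1 and Myh4 had at most 3 and 1 reads. The part of these markers in the values of the 5 genes was not tested.

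Other genes of sodium transport were read as a list of 32, of which 29 were found under these symbols and 18 were tested. Of the 18, 4 were called higher and 1 lower, beside 8.50% and 7.16% of all tested genes, and the median log2 fold change was -0.06. Nkain1, whose product binds beta subunits of the pump, rose from 0.719 ± 0.211 to 3.57 ± 0.780 CPM with 3 to 33 reads per library (log2 fold change 2.31, SE 0.29, adjusted p = 7.87e-05 by edgeR). Slc9a7, a sodium-proton exchanger of the Golgi, rose from 9.22 ± 1.45 to 19.4 ± 2.91 CPM (log2 fold change 1.08, SE 0.15, adjusted p = 0.000119 by edgeR). Slc9a2, an exchanger of the plasma membrane, fell from 13.4 ± 4.07 to 5.88 ± 1.25 CPM (log2 fold change -1.18, SE 0.21, adjusted p = 0.000816 by edgeR). Of the exchangers' partners, Tesc, a calcium-binding cofactor, rose from 1.58 ± 0.759 to 5.12 ± 0.893 CPM and the scaffold gene Slc9a3r1 rose from 12.1 ± 2.52 to 20.7 ± 3.97 CPM (adjusted p = 0.000382 and 0.00349 by edgeR). The groups did not overlap in 5 of the 18 tested genes, which were these same 5 called genes, beside 22.7% of all tested genes.

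The sodium-calcium exchanger of heart muscle, Slc8a1, had the most reads of the list and was not called, at 2286 ± 82.4 CPM in controls and 2092 ± 150 CPM in mutants (log2 fold change -0.13, SE 0.10, adjusted p = 0.370 by edgeR). The bicarbonate transporter Slc4a4 had 95.3 ± 6.87 and 90.1 ± 12.6 CPM and the scaffold Slc9a3r2 had 66.6 ± 15.9 and 57.6 ± 9.11 CPM, and neither passed the test. By group, 1 of 5 tested sodium-proton exchangers was called higher and 1 lower, 2 of 3 exchanger partners higher, 1 of 2 Nkain genes higher, and 0 of 3 sodium-bicarbonate, 0 of 2 sodium-calcium and 0 of 1 sodium-potassium-chloride genes were called, groups too small to set against the 8.50% called higher and 7.16% called lower of all tested genes. Of the other FXYD genes, Fxyd6 and Fxyd3 were tested and not called, and Fxyd2, Fxyd4 and Fxyd7 had at most 9, 6 and 6 reads. Fxyd6 had 30.3 ± 7.66 CPM in controls and 40.3 ± 7.86 CPM in mutants (log2 fold change 0.41, adjusted p = 0.0896 by edgeR). Atp1b4, the remaining gene of the beta family, had at most 14 reads.

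**Figure D3:**
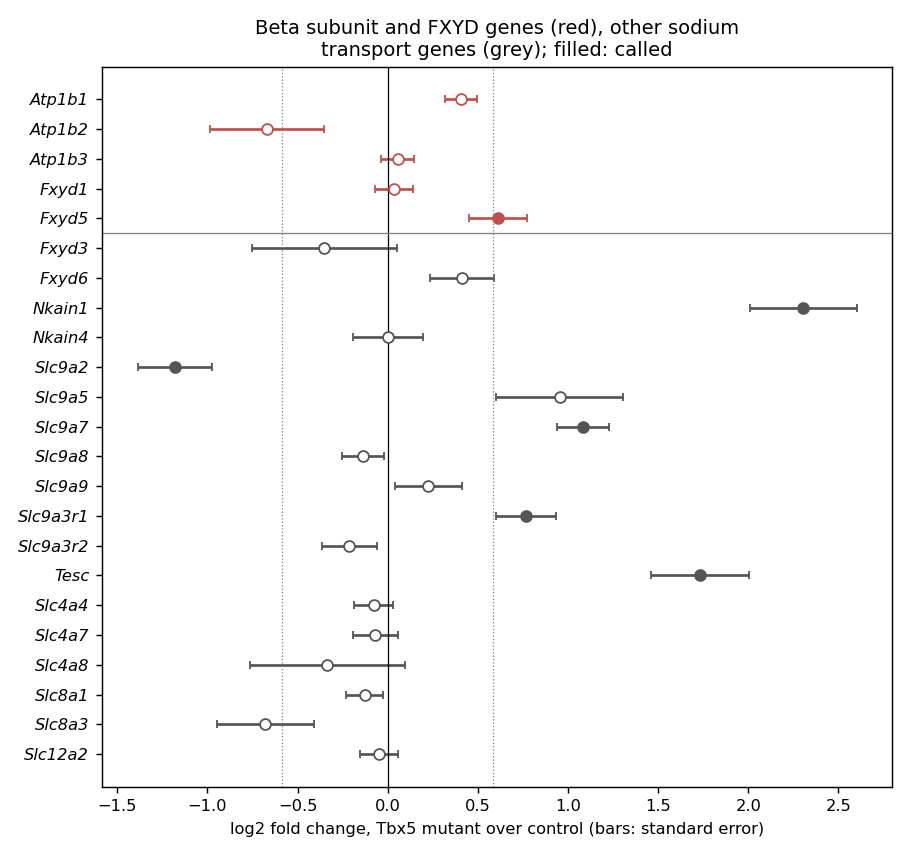
Log2 fold change (Tbx5 mutant over control) with its standard error for Atp1b1, Atp1b2, Atp1b3, Fxyd1 and Fxyd5 in red and for the 18 tested genes of the sodium transport list in grey. Filled points were called and dotted lines mark a fold of 1.5. Fxyd5 is the only filled red point, and Nkain1, at 2.31, is farthest to the right.

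The genes whose log2 CPM followed each of the 5 most closely over the 10 libraries were taken from 9981 genes (9982 for Atp1b2) with a mean count of at least 50, and the correlations are a description, since all genes share the same libraries and groups. For Atp1b1 these were Bub3, Eci2 and Ckap4, with Pearson r of 0.98, 0.98 and 0.96, and of 0.91, 0.87 and 0.79 once each group's mean was taken out. Bub3, Eci2 and Ckap4 had higher counts in the mutants (log2 fold change 0.41, 0.50 and 0.69, adjusted p = 0.00446, 0.00117 and 0.000300 by edgeR). Fxyd5 was followed by Itpripl2, Lrrc33 and Marcksl1 at 0.97, 0.96 and 0.96, of which Lrrc33 and Marcksl1 also had higher counts in the mutants (log2 fold change 0.56 and 1.08, adjusted p = 0.00926 and 0.00282 by edgeR). For Fxyd1 the closest were Acot13, Prkcsh and Sod1, at 0.96, 0.95 and 0.94. Atp1b2 was followed by Rnf44, Rnf167 and Ptgds at 0.98, 0.94 and 0.93, and Atp1b3 by Emb, Pcsk5 and Caml at 0.90, 0.87 and 0.87.

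Between pairs of the 5 genes, Atp1b1 and Fxyd5 had r = 0.66 over the 10 libraries, which became -0.11 once each group's mean was taken out. Atp1b2 and Fxyd1 had r = 0.44 over all libraries and 0.61 within groups. Fxyd1 and Fxyd5, neighbours on chromosome 7, had r = 0.02 over all libraries and -0.12 within groups. Mice with more Atp1b1 than their group's mean thus did not tend to have more Fxyd5.

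**Figure D4:**
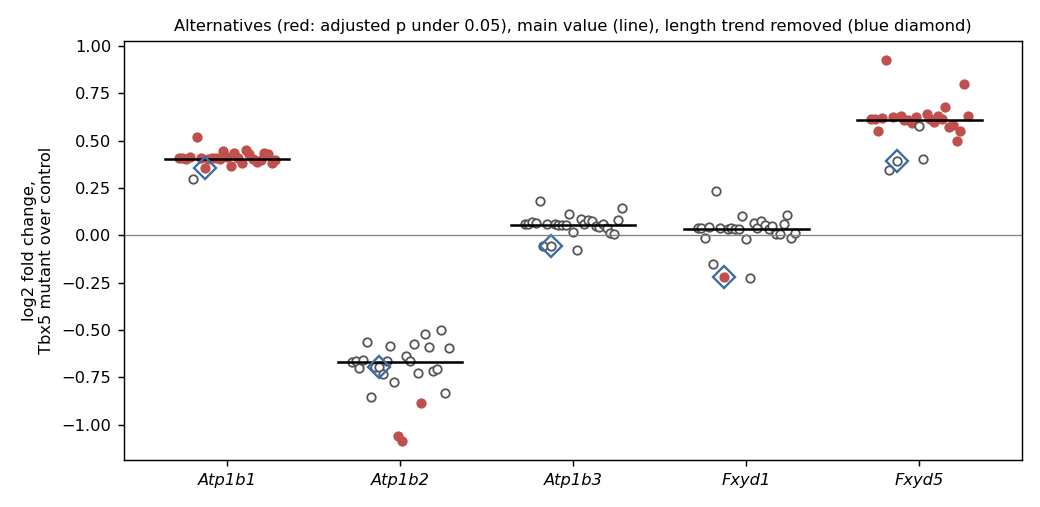
Log2 fold change of Atp1b1, Atp1b2, Atp1b3, Fxyd1 and Fxyd5 (Tbx5 mutant over control) under each alternative analysis. Each point is an analysis, red where the adjusted p was under 0.05, the black line is the value reported in the text and the blue diamond is the analysis with the trend on transcript length removed. Atp1b1 stays between 0.30 and 0.52, while Fxyd1 lies on both sides of 0.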

How the data were processed

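RNA-seq was measured in 10 right atrial libraries, each taken as 1 mouse as the sample names read. Per the submitters' processing notes, FastQC, TopHat2 2.0.11, featureCounts, DESeq2 and the build mm10 were used. The strand setting is not given in the sources used here, and the protocol text names both an mRNA kit and ribosome-depleted total RNA. The authors deposited whole-number read counts per gene and library, not normalized. They also deposited a normalized signal, the counts divided by a size factor per library, which was used only for the threshold on the control mean and as an alternative scaling. The remaining columns of their table hold the mean signal and their own DESeq2 comparison (log2 fold change, standard error, Wald score, p-values and fold change) and were not used.

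The whole table of counts went into edgeR 4.0.16 (R 4.3.3): filterByExpr, TMM, and the quasi-likelihood test of 4 control against 6 mutant libraries without covariates, with Benjamini-Hochberg adjustment over 13084 genes and a prior count of 0.125. A call needed an adjusted p under 0.05, a fold over 1.5 and a control mean signal over 1. Permutation tests used log2(CPM + 0.1). On counts simulated from these libraries, 161 of 200 genes changed by a fold of 2 among 13084 were recovered, with 7 other calls. This recovery does not cover smaller folds, such as those of Atp1b1 and Fxyd5. Depth sets the precision: a share of 3 counts was 4.23e-05 to 5.26e-05% of a library, which covers counting error only, as reads carry no molecular identifiers.

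Lengths came from GENCODE M21, using the longest coding transcript matched to RefSeq, found for 22864 of 23337 symbols. Trends on length or GC content were removed as offsets from a lowess curve (span 0.4) per library, which in simulated counts took the Spearman correlation of fold change with length from -0.797 to -0.0217. The simulated trend was stronger than that of the data, where the correlation was -0.321. Alternatives were other scalings, filters, thresholds and prior counts, DESeq2 1.42.0, limma 3.58.1, labelled sex as a covariate or alone, a replicate block, counts without Rn45s, and leaving out each library. Since Xist and Ddx3y went against the labelled sex of the controls, the covariate did not adjust for sex by these transcripts.

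The 5 genes, the sodium transport and marker lists and the tests were chosen with earlier results of these data known. Of the sodium transport list, the called genes and the 3 uncalled genes with the most reads were named, with the 3 closest genes in expression to each of the 5. Fxyd6 and the genes listed by low reads were named after their values were seen. A few genes of the sodium transport list are not reported here. No pair of libraries in a group differed by less than sampling noise (lowest chi-square per degree of freedom 3.78 over 21 pairs).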

Additional observations from a re-analysis of the deposited data

Results flagged for a closer look

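Among 26 groups of values tested for a library far from the rest, of which about 1.3 would be picked by chance, 1 was picked. Rn45s took 38.9% of the counts in mutant M3, while the other 5 libraries labelled Tbx5 mutant had 0.268 to 0.582%. Atp1b1 and Fxyd5 in mutant M3 stood at 289 and 34.9 CPM, inside the range of the other mutants for both genes. With Rn45s taken out of all libraries, the log2 fold change was 0.41 for Atp1b1 (adjusted p = 0.00410 by edgeR) and 0.62 for Fxyd5 (adjusted p = 0.0106 by edgeR).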

How the results depend on the processing

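Atp1b1 kept its direction in 27 alternatives (0.30 to 0.52, adjusted p 2.39e-05 to 0.102 by edgeR, limma or DESeq2) and lost the adjusted p only among libraries labelled female (0.30). Fxyd5 stayed positive (0.35 to 0.92, adjusted p 0.00100 to 0.329), and lost the adjusted p with the length trend removed (0.39), in libraries labelled male (0.35) and with the replicate block, alone (0.58) or with the length trend removed (0.40). Fxyd1 turned to -0.22 with the length trend removed, -0.016 with the GC trend removed, -0.15 in libraries labelled female, -0.021 with the replicate block and -0.23 with block and length together, and ran from -0.014 to 0.11 when each library was left out. Atp1b3 turned to -0.056 with the length trend removed, -0.056 in libraries labelled male and -0.075 with block and length together. Leaving out each library gave Atp1b2 values of -0.89 to -0.50.

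Same-numbered libraries did not deviate together (mean r -0.0071 over 4 pairs, 0.0013 over 20 others). So few pairs cannot show whether the numbers pair the mice. With the replicate block Atp1b2 was -1.06 (adjusted p = 0.00592 by edgeR) and was called lower in place of Fxyd5, and with block and length together it was -1.09. No control shares a label with mutant F3 or M3, so neither adds to the group difference in these fits. They had the highest Atp1b2 of the mutants, at 6.97 and 5.17 CPM. The number of the 5 genes called was 1, and 0 to 2 when each library was left out. It was 0 with the length or the GC trend removed, in libraries labelled male, at an adjusted p under 0.01 or at a fold over 2, and 2 with no fold threshold. Over all genes, 2049 calls became 1284 at a mean count of at least 50, 906 at a fold over 2 and 4096 with no fold threshold. The last 3 follow from the settings themselves, and the cause of the other changes was not tested. Controls and mutants of 1 labelled sex differed in sex by Xist and Ddx3y. Scaling moved the median of all genes by at most 0.031 on the log2 scale. Depth limits Atp1b2 most, at 10 to 64 reads per library.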
